A study of Mus musculus with 3 samples.

Results

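The cathepsin family was followed here as 8 protease genes, Ctsa, Ctsb, Ctsc, Ctsd, Ctsh, Ctsl, Ctss and Ctsz, taken by gene name from 11419 listed genes. All 8 were listed, and Ctsg, whose product is a serine protease of neutrophil granules, was kept out of the family. RNA came from hind limb bone marrow of C57BL/6 mice, an inbred strain with no treatment or allele named in the labels, sorted for CD11b, F4/80 and CD169 and against CX3CR1. There were 3 libraries of this 1 population and no second group, and the labels did not say whether each library had its own mouse. Values are CPM, reads of a gene per 1000000 reads assigned to the listed genes. Levels of different genes are compared as CPM per kb of annotated exon, and plain CPM, which also grows with gene length, serves to set a gene against 10 CPM and to compare libraries.

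Cathepsins are proteases of lysosomes and of related granules. Most belong to the papain family of cysteine proteases, while cathepsin D is an aspartic protease and cathepsin A a serine carboxypeptidase. Cathepsin C, the product of Ctsc, is the odd member in myeloid cells: it trims the amino terminus of elastase, proteinase and other granule serine proteases and so makes them active. Macrophages are known for abundant cathepsins B, D, L and S, which digest what the cell has taken up, and cathepsin S also cuts the invariant chain of class II molecules.

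The libraries differed in depth and in marker genes. Replicates 1, 2 and 3 had 5150020, 40149274 and 37604930 reads. Of all genes tested, 58.8% were above 10 CPM and 28.3% below. All 14 neutrophil lineage markers were above 10 CPM and summed to between 189477 and 226217 CPM per library, with 55067 ± 4306 CPM for Ngp (SD, n = 3). Of 16 macrophage markers, 5 were above 10 CPM and 9 below. The 16 summed to between 249 and 279 CPM, with 74.3 ± 19.3 CPM for Vcam1. The markers thus went against the word macrophages in the labels, and the cells are called here by their sort gate. Adgre1, the F4/80 gene, was at 18.6, 26.5 and 21.4 CPM in replicates 1, 2 and 3, Siglec1, the CD169 gene, at 0.388, 3.66 and 4.57 CPM, and Cx3cr1 at 0, 0.423 and 0 CPM, where a count of 0, taken to allow up to 3 reads, means at most 0.583 CPM for replicate 1 and 0.0798 CPM for replicate 3. Replicate 1 stood apart in its depth, its low Siglec1 and, among other lists, its basophil and mast cell markers, which summed to 1530 CPM there and to 746 and 813 CPM in replicates 2 and 3. Erythroid markers summed to 1004, 555 and 532 CPM in replicates 1, 2 and 3, dendritic cell markers to 37.1, 18.4 and 16.5 CPM, and eosinophil markers to 604, 1023 and 1402 CPM. Several cell type lists thus differed between replicate 1 and the others, in both directions. Results that rest on replicate 1 are given with and without it.

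RefSeq promoter windows on GRCm38.p6, from 250 bases before a transcription start to 50 after it, were on hand for 6 of the 8 genes, in 7 windows. They were searched for CACGTG, the core that E-box binding factors of the TFEB family recognise in many lysosomal genes, and for the longer TCACGTGA. Each motif reads the same on both strands, and every TCACGTGA contains a CACGTG. These stretches are shown because the highest member, Ctsd, and Ctsc differ in them. Other members went the other way: Ctsz, second in level per kb, had no match, and Ctsl, the lowest, had 1. The capitals mark CACGTG in 30-base stretches, each named with its build, position and strand, and distances run from the motif centre. Starts are those of RefSeq and can differ from the ends of the GENCODE gene spans given below. The Ctsl stretch, the Ctsd stretch 95 bases before the start and the Ctsa stretches lie inside those spans.
Ctsd, 242 bases before the start (GRCm38.p6 chr7:142388048-142388077, minus strand): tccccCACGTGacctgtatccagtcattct
Ctsd, 95 bases before the start (GRCm38.p6 chr7:142387908-142387937, minus strand): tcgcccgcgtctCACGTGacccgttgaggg
Ctsa, 9 bases before its second start (GRCm38.p6 chr2:164833749-164833778, plus strand): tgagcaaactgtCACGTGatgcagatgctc
Ctsa, 8 bases after its second start (GRCm38.p6 chr2:164833766-164833795, plus strand): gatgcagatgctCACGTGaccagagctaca
Ctsl, 233 bases before the start (GRCm38.p6 chr13:64370739-64370768, minus strand): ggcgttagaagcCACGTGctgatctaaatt
Ctsc, the 250 bases before the start, with no match (GRCm38.p6 chr7:88277835-88278084, plus strand): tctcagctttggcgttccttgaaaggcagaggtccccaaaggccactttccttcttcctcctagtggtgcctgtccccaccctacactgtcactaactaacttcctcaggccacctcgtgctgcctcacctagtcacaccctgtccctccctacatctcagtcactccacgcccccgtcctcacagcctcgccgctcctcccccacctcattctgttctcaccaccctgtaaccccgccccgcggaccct

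CACGTG was found in windows of 3 of the 6 genes, Ctsd, Ctsa and Ctsl, and TCACGTGA in windows of Ctsd and Ctsa. Of all 27025 genes with windows, 8.09% had CACGTG in at least 1 window and 1.12% had TCACGTGA. By window, the shares were 7.15% and 0.974% of 32851. A match is a description of the letters and not of binding, and the windows of Ctsc, Ctss and Ctsz, which had no match, say nothing about the factor. The map of E-box matches shows their distances from the start.

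**Figure D1:**
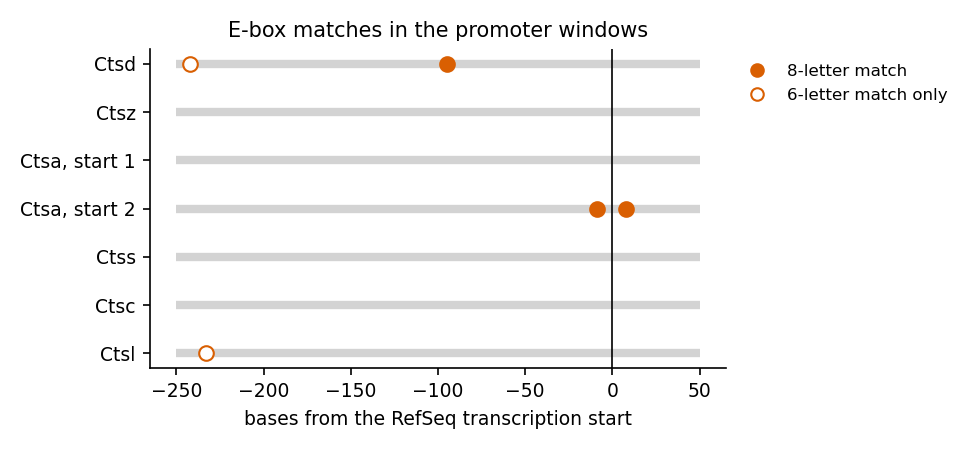
Positions of CACGTG in the 7 promoter windows of 6 cathepsin genes, as bases from the RefSeq transcription start (x axis). Each grey bar is a window, filled circles are matches to the 8-letter TCACGTGA and open circles matches to the 6-letter CACGTG alone. Ctsd and Ctsa have filled circles, Ctsl has an open circle, and Ctsz, Ctss and Ctsc have none.

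The family fell into 5 genes well above 10 CPM and 3 at or under it, with Ctsc among the low ones. Ctsd, Ctsb, Ctsh, Ctsz and Ctsa were above 10 CPM, Ctss and Ctsl were below, and Ctsc could not be told from 10 CPM (limma on log2(CPM + 1), adjusted p under 0.05 over all 11123 genes tested). Of all genes tested, 58.8% were above and 28.3% below, so the count of 5 of 8 above is close to the background. The median of the 8 genes was 80.0 CPM, or 23.9 CPM per kb, against 19.7 CPM and 4.37 CPM per kb over all listed genes. The summed share of the 8 genes among all reads was 0.111%, 0.112% and 0.105% in replicates 1, 2 and 3. In sorted bulk cells, fewer cells that make a transcript and less of it per cell cannot be told apart.

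Ctsd, which encodes the aspartic protease cathepsin D, a major endopeptidase of lysosomes, was the highest member. It had 454, 441 and 379 CPM in replicates 1, 2 and 3, which put it 5.27 above 10 CPM on the log2 scale (SE 0.11, limma adjusted p = 7.87e-22). The lowest library was thus replicate 3, and all 3 lay far over 10 CPM. Per kb of exon it averaged 181 ± 17.2 CPM (SD, n = 3), higher than 98.1% of genes with a length, and it made up 50.5 ± 3.06% of the summed CPM per kb of the 8 genes. Ctsd lies on GRCm38 chromosome 7 (142375911 to 142388038, minus strand), and 34.4% of its exonic bases are shared with Gm49369 on the same strand. Gm49369 was not among the listed genes, and how reads of the shared bases were counted is not known.

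Ctsb, which encodes a cysteine protease that can cut both within and at the end of proteins, was at 349, 314 and 336 CPM in replicates 1, 2 and 3. Its log2 level over 10 CPM was 4.92 (SE 0.10, limma adjusted p = 2.45e-21). The libraries were close, with a range of 0.16 on the log2(CPM + 1) scale. The median range was 0.44 over the 8496 tested genes that averaged 5 CPM or more. Ctsb (chromosome 14, 63122462 to 63145923, plus strand) has the second largest exon length of the family at 6.05 kb, and 12.8% of it lies over exons of Fdft1 on the other strand. Strand use in the counting was not given in the sources used here, so reads of those stretches cannot be told apart.

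Ctsz, the gene of cathepsin Z, a carboxypeptidase also called cathepsin X, was at 91.8, 98.3 and 97.3 CPM in replicates 1, 2 and 3 and had the smallest range of the 8 genes, 0.10 on the log2(CPM + 1) scale. Because its exons span only 1.44 kb (chromosome 2, 174427493 to 174439039, minus strand), it stood second in the family per kb, at 66.5 ± 2.42 CPM per kb (SD, n = 3), ahead of Ctsb at 55.0 ± 2.99, an order that turned when the longest transcript was taken as length. Ctsh, which encodes an aminopeptidase of lysosomes and of lung surfactant processing, was at 152, 173 and 136 CPM (chromosome 9, 90054152 to 90076089, plus strand). Its log2 level over 10 CPM was 3.80, and that of Ctsz 3.14 (SE 0.12 each, limma adjusted p = 1.73e-18 and 1.30e-16). Replicate 3 was lowest for Ctsh and replicate 1 for Ctsz.

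Ctsa encodes cathepsin A, also called protective protein, which stabilises the sialidase and beta-galactosidase encoded by Neu1 and Glb1. It was at 49.9, 72.4 and 70.4 CPM in replicates 1, 2 and 3, which put it 2.55 above 10 CPM on the log2 scale (SE 0.14, limma adjusted p = 1.08e-13). Replicate 1 was the low library, and its counting interval of 44.0 to 56.4 CPM, which covers counting error only, did not reach those of the others. The range of Ctsa was 0.53 on the log2(CPM + 1) scale. Tested genes averaging 5 CPM or more had a median range of 0.44, and 90% of them stayed under 0.94. Exons of Pltp and Neurl2 on the other strand cover 10.5% and 6.87% of those of Ctsa (chromosome 2, 164832873 to 164841032, plus strand).

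**Figure D2:**
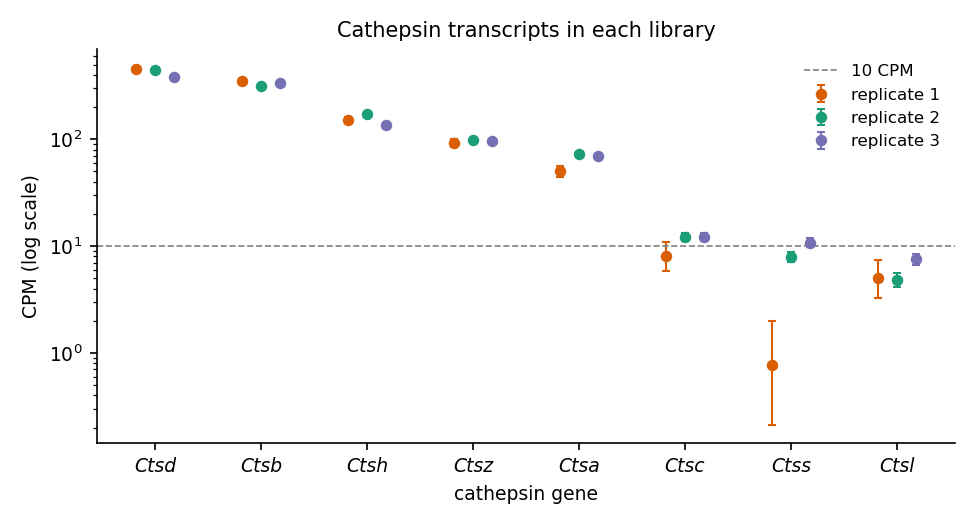
CPM of each of the 8 cathepsin genes (y axis, log scale) in replicates 1, 2 and 3, with 95% exact Poisson intervals that cover counting error only. The dashed line is at 10 CPM. Ctsd, Ctsb, Ctsh, Ctsz and Ctsa lie above it in all 3 libraries, Ctsc, Ctss and Ctsl lie around or under it, and Ctss in replicate 1, at 0.777 CPM, stands apart.

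Ctsc itself was at 8.16, 12.3 and 12.1 CPM in replicates 1, 2 and 3, which rests on 42, 492 and 456 reads. Replicate 1 was again the low library, with an exact Poisson interval of 5.88 to 11.02 CPM against 11.2 to 13.4 and 11.04 to 13.3 CPM in the others. The range of Ctsc was 0.53 on the log2(CPM + 1) scale, near that of Ctsa. The log2 level over 10 CPM was 0.09 (SE 0.22, limma adjusted p = 0.712), and without replicate 1 it was 0.26. Per kb Ctsc averaged 1.87 ± 0.401 CPM (SD, n = 3), higher than 32.0% of genes with a length. Ctsc lies on chromosome 7 (88278085 to 88310888, plus strand) with 5.81 kb of annotated exon, but its longest transcript has 3220 bases, so its level per kb depends on which transcripts the cells make.

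Ctss, the gene of cathepsin S, had the largest spread of the family. It was at 0.777 CPM in replicate 1, from 4 reads, and at 7.95 and 10.8 CPM in replicates 2 and 3, from 319 and 405 reads. The interval of replicate 1, 0.212 to 1.99 CPM, did not overlap those of replicates 2 and 3, 7.10 to 8.87 and 9.75 to 11.9 CPM, though these intervals treat reads as independent molecules. Its range of 2.73 on the log2(CPM + 1) scale was above the 0.94 that 90% of the tested genes averaging 5 CPM or more stayed under. Ctss was called below 10 CPM (log2 level -0.94, SE 0.37, limma adjusted p = 0.0205), a call lost without replicate 1, where the level was -0.10 (limma adjusted p = 0.710). It was also lost in both tests on recovered reads (edgeR adjusted p = 0.216, DESeq2 adjusted p = 0.204) and with the gene's own variance (limma adjusted p = 0.407). The gene is on chromosome 3 (95526786 to 95556403, plus strand).

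Siglec1 showed the same order of libraries as Ctss, with 2 reads in replicate 1 and 147 and 172 reads in replicates 2 and 3. The macrophage markers as a list did not, since their sum was 271, 249 and 279 CPM in replicates 1, 2 and 3 and none of the 16 was at 0 in any library. Replicate 1 was the highest library for 9 of the 16, among them C1qa at 27.6, 16.3 and 12.3 CPM, and the lowest for 4. The part of macrophages, of the other cell types or of depth in the low Ctss of replicate 1 was not tested.

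Ctsl, the gene of cathepsin L, an endopeptidase of lysosomes, was at 5.05, 4.83 and 7.50 CPM in replicates 1, 2 and 3, from 26, 194 and 282 reads, so replicate 3 was the highest library. It was below 10 CPM (log2 level -0.72, SE 0.25, limma adjusted p = 0.0113), and the call was lost without replicate 2 (log2 level -0.62, limma adjusted p = 0.111) and with the gene's own variance (limma adjusted p = 0.0707). Per kb Ctsl was the lowest member at 0.893 ± 0.228 CPM (SD, n = 3), with exons that span 6.49 kb on chromosome 13 (64359337 to 64370890, minus strand). Of those exonic bases, 26.8% are shared with the antisense gene Gm47123 and 6.09% with the pseudogene Gm49230.

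**Figure D3:**
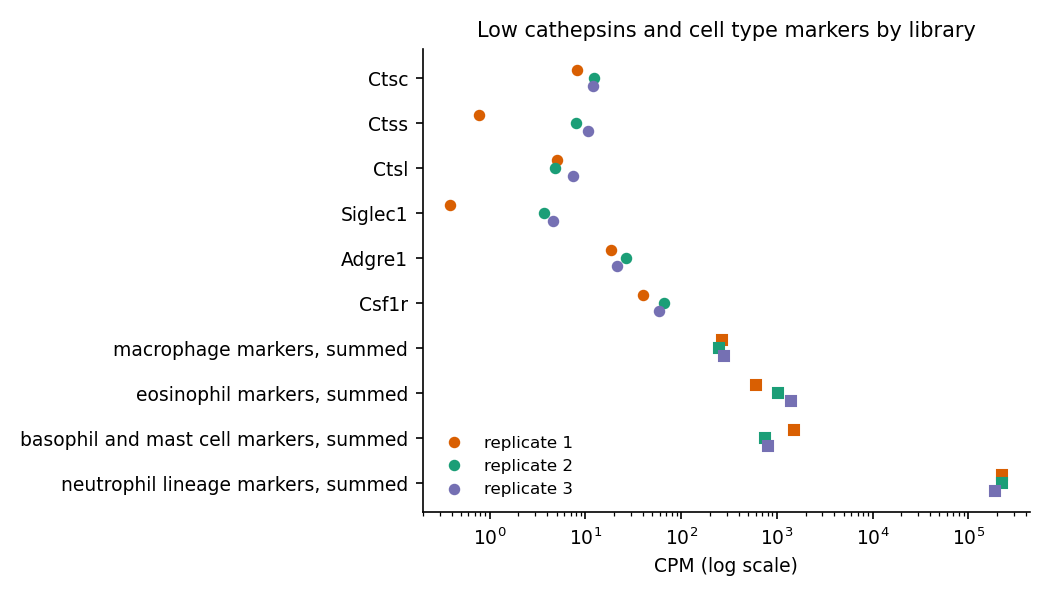
CPM (x axis, log scale) in replicates 1, 2 and 3 of the 3 low cathepsin genes and of the macrophage genes Siglec1, Adgre1 and Csf1r (circles), and summed CPM of 4 marker lists (squares). Replicate 1 is lowest for Ctsc, Ctss, Siglec1, Adgre1, Csf1r and the eosinophil markers and highest for the basophil and mast cell markers. The genes shown are not typical of the 16 macrophage markers, of which 9 were highest in replicate 1.

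Set side by side within each library, Ctsc lay far under the 5 high cathepsins. On the scale of log2((CPM + 1) per kb), Ctsc minus Ctsd was -6.94, -6.36 and -6.16 in replicates 1, 2 and 3, a mean of -6.49 ± 0.41 (SD, n = 3), which is 89.7-fold more Ctsd per kb. Against Ctsz the mean difference was -5.06 ± 0.25, against Ctsb -4.78 ± 0.37 and against Ctsh -4.09 ± 0.34, or 33.4-fold, 27.4-fold and 17.0-fold more of each per kb than of Ctsc. With the longest transcript as length, the excess was 55.0-fold for Ctsd and 18.5-fold for Ctsz, and with no correction for length 36.3-fold and 8.29-fold. Ctsa was nearest of the 5, and its difference hardly moved between libraries, at -2.78, -2.77 and -2.74 (mean -2.76 ± 0.02, 6.79-fold more Ctsa). Ctsc and Ctsa were thus both lower in replicate 1, by nearly the same ratio.

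All 5 differences were negative in 3 of 3 libraries and passed the test of Ctsc against each gene (limma, largest adjusted p = 1.13e-42 over 11114 genes). Those p-values are too small, because the deviation of Ctsc in a library enters every difference. For each gene limma then used only the variance expected at its level, and not the gene's own. With each gene's own variance, an alternative chosen after that was seen, the 5 still passed (limma without moderation, adjusted p between 0.00890 and 0.0113).

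By mean level per kb Ctsc lay between the other low members, Ctss and Ctsl, but in replicate 1 it was above both. Ctsc minus Ctsl was 0.76, 1.34 and 0.79 in replicates 1, 2 and 3 (mean 0.96 ± 0.33, 1.95-fold more Ctsc per kb, or 3.34-fold with the longest transcript as length), positive in 3 of 3 libraries. The limma test called Ctsc higher (adjusted p = 0.00460), and the call was lost without replicate 2 (difference 0.77, limma adjusted p = 0.117) and with the gene's own variance (limma adjusted p = 0.0565). Ctsc minus Ctss was 0.27 in replicate 1 and -1.53 and -1.94 in replicates 2 and 3, so the libraries went opposite ways. The mean of -1.07 ± 1.17 was under its own spread. The limma call of lower Ctsc (adjusted p = 0.00213) was lost without replicate 2 (-0.84, limma adjusted p = 0.113), without replicate 3 (-0.63, limma adjusted p = 0.220) and with the gene's own variance (limma adjusted p = 0.291). Without replicate 1 the difference was -1.73, a 3.33-fold excess of Ctss against 2.09-fold with all libraries. The call was also lost with a pseudocount of 0.1 (-0.76, limma adjusted p = 0.0873) and with the longest transcript as the length (-0.22, limma adjusted p = 0.549), and with no correction for length the sign turned (1.03, limma adjusted p = 0.00298). Which of Ctsc and Ctss was higher thus differed between libraries and settings.

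In all, 6 of the 7 other cathepsins were called higher than Ctsc per kb and 1 lower, while 61.9% of all 11114 genes were higher than Ctsc and 20.4% lower. Many genes in these libraries were thus above Ctsc, and the 6 of 7 is to be read against that. The 6 became 5 wherever the call of Ctss was lost or turned. Ctsc minus the mean of the 7 others was -3.38, -3.26 and -3.33 in replicates 1, 2 and 3 (mean -3.33 ± 0.06, SD, n = 3), and the exact sign-flip permutation p was 0.25, the smallest that 3 libraries allow. Ctsc made up 0.388%, 0.570% and 0.613% of the summed CPM per kb of the family, against 99.2%, 97.6% and 96.7% for Ctsd, Ctsz, Ctsb, Ctsh and Ctsa together.

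The order of the family per kb was Ctsd, Ctsz, Ctsb, Ctsh, Ctsa, Ctss, Ctsc and Ctsl, and it depended on the length used. With the longest transcript Ctsb stood ahead of Ctsz (Ctsc minus Ctsb -4.28, Ctsc minus Ctsz -4.21). With no length Ctsz came after Ctsb and Ctsh, and Ctsc ahead of Ctsl and Ctss. With the exon lengths, neighbours kept their order in 3 of 3 libraries, except Ctss and Ctsc. The closest pair was Ctsz and Ctsb, where Ctsz was higher by 0.15, 0.41 and 0.29 on the log2 scale (mean 0.28 ± 0.13, SD, n = 3). The widest step, 1.70 ± 1.19, lay between Ctsa and Ctss and was spread by the low Ctss of replicate 1. Over the 3 libraries the genes most like Ctsc in level per kb were Arhgap21, Sos1 and Pikfyve, with root mean square differences of 0.01, 0.01 and 0.04 on the log2((CPM + 1) per kb) scale. With only 3 libraries, such nearness says little more than that the levels are alike.

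**Figure D4:**
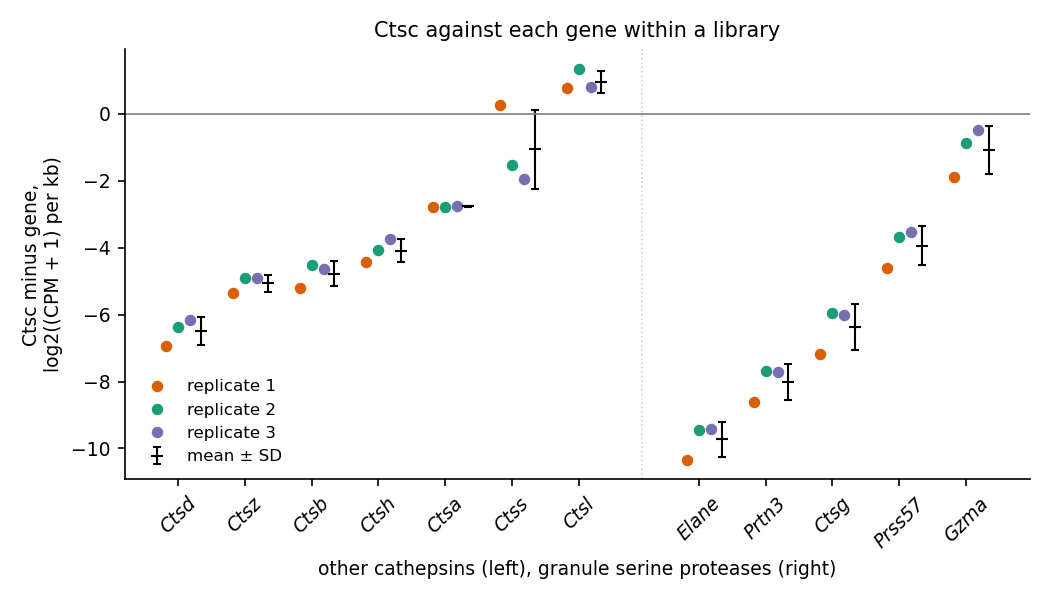
Difference of Ctsc from each gene within a library, in log2((CPM + 1) per kb) (y axis), for the 7 other cathepsins (left of the dotted line) and for 5 granule serine proteases (right). Coloured points are replicates 1, 2 and 3, and black marks the mean ± SD. All points lie under 0 except Ctss in replicate 1 and Ctsl.

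Of the granule serine proteases that cathepsin C activates, Elane, Prtn3, Ctsg and Prss57 were far above Ctsc per kb, and Gzma was near it. Of 9 such genes 5 were listed, with 4 above 10 CPM and 1 below, against 58.8% and 28.3% of all genes. All 5 were called higher than Ctsc in the limma test, as were 61.9% of all genes, and 4 with each gene's own variance, as were 52.2% of all genes. Elane, the neutrophil elastase gene, was at 2008, 1558 and 1516 CPM in replicates 1, 2 and 3, so Ctsc minus Elane per kb was -10.34, -9.44 and -9.41 (mean -9.73 ± 0.53, 850-fold more Elane). Ctsc minus Prtn3, the proteinase 3 gene, averaged -8.00 ± 0.54, and Ctsc minus Ctsg, the cathepsin G gene, -6.37 ± 0.69 (SD, n = 3). Prss57, the gene of neutrophil serine protease 4, was nearer, at 109, 82.3 and 73.0 CPM and a difference of -3.94 ± 0.59. Gzma, a granzyme gene of cytotoxic lymphocytes, was at 4.85, 3.24 and 2.18 CPM and was below 10 CPM (limma adjusted p = 0.000147). Ctsc minus Gzma per kb was -1.88, -0.88 and -0.48 (mean -1.08 ± 0.72, 2.12-fold more Gzma), a call lost with its own variance (limma adjusted p = 0.150). With no pseudocount, the mean CPM per kb was 3.40 for Gzma and 1.87 for Ctsc.

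Replicate 1 was the highest of the 3 libraries for each of these 5 proteases and the lowest for Ctsc. The gap between Ctsc and the proteases was therefore widest there. For Ctsg, for example, Ctsc minus Ctsg was -7.16 in replicate 1 and -5.95 and -6.00 in replicates 2 and 3. Ctsc rests on 42 reads in replicate 1, and the share of all genes highest or lowest there was not counted. Basophil and mast cell markers were also highest in replicate 1, at 1530 CPM in sum against 746 and 813 CPM, and their part in the gap was not tested.

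Beyond the family, 4 of 15 other cathepsin genes were listed. Ctse, an aspartic protease like Ctsd, was above 10 CPM at 63.5, 70.2 and 76.7 CPM in replicates 1, 2 and 3 (limma adjusted p = 9.44e-15), a level per kb of 22.1 ± 2.09 CPM (SD, n = 3) that lay between those of Ctsh and Ctsa. Ctsg averaged 175 ± 49.5 CPM. Ctso was not called (11.1, 6.40 and 3.46 CPM, limma adjusted p = 0.0503), and Ctsf was below at 0, 0.199 and 0.532 CPM. Ctsk, the collagen-degrading cathepsin of osteoclasts, and Ctsw, that of cytotoxic lymphocytes, were not among the listed genes and were not analysed here.

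Inhibitors of cathepsins were expressed alongside them. Of 18 cystatin and stefin genes 8 were listed, 4 above 10 CPM and 3 below, close to the 58.8% and 28.3% of all genes. All 8 were called higher than Ctsc per kb by limma, against 61.9% of all genes, and 6 with each gene's own variance, the exceptions being Stfa3 and BC100530 (limma adjusted p = 0.0546 and 0.0556). Cst3, which encodes the secreted inhibitor cystatin C, averaged 288 ± 39.1 CPM, and Cst7, the gene of cystatin F, which inhibits cathepsin C inside granules, was at 52.6, 34.05 and 40.0 CPM (limma adjusted p = 8.02e-11). Cst7, like all 8 of these genes, was highest in replicate 1, where Ctsc was lowest, but the share of all genes highest there was not counted. Stfa2l1 averaged 71.9 ± 10.1 CPM and Cstb 22.3 ± 3.04, while Stfa2 (4.19 ± 1.16) and BC100530 (3.48 ± 0.736) were below 10 CPM (SD, n = 3). The stefin A genes are close copies of each other, so their separate counts are uncertain.

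Of 8 genes on a list of cathepsin maturation and partners, 7 were above 10 CPM, against 58.8% of all genes. The inhibitor gene Cst7 was among these 7 and was also counted with the cystatins. Lgmn, whose product legumain cuts cathepsins into chains, was below at 7.77, 7.02 and 2.74 CPM in replicates 1, 2 and 3 (limma adjusted p = 0.0120). Psap, the prosaposin gene, averaged 909 ± 35.8 CPM, Grn, the progranulin gene, 444 ± 22.1, Galns 206 ± 14.9, and the cathepsin A partners Neu1 159 ± 7.94 and Glb1 21.5 ± 3.33 (SD, n = 3). All 9 genes of a list for sorting to the lysosome, which includes the mannose 6-phosphate route of many lysosomal enzymes, were also above 10 CPM. Of these 9 genes, 8 were lowest in replicate 1, where the share of all genes that were lowest was not counted. Sort1, the sorting receptor sortilin, averaged 459 ± 60.2 CPM, Gga1 149 ± 21.2, and the receptor genes Igf2r 125 ± 35.8 and M6pr 124 ± 21.9. Gga2 had 20.4 ± 3.63 and Gnptab 21.4 ± 3.38 CPM (SD, n = 3). The medians of the 2 lists were 42.7 and 10.9 CPM per kb, against 4.37 CPM per kb over all listed genes.

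**Figure D5:**
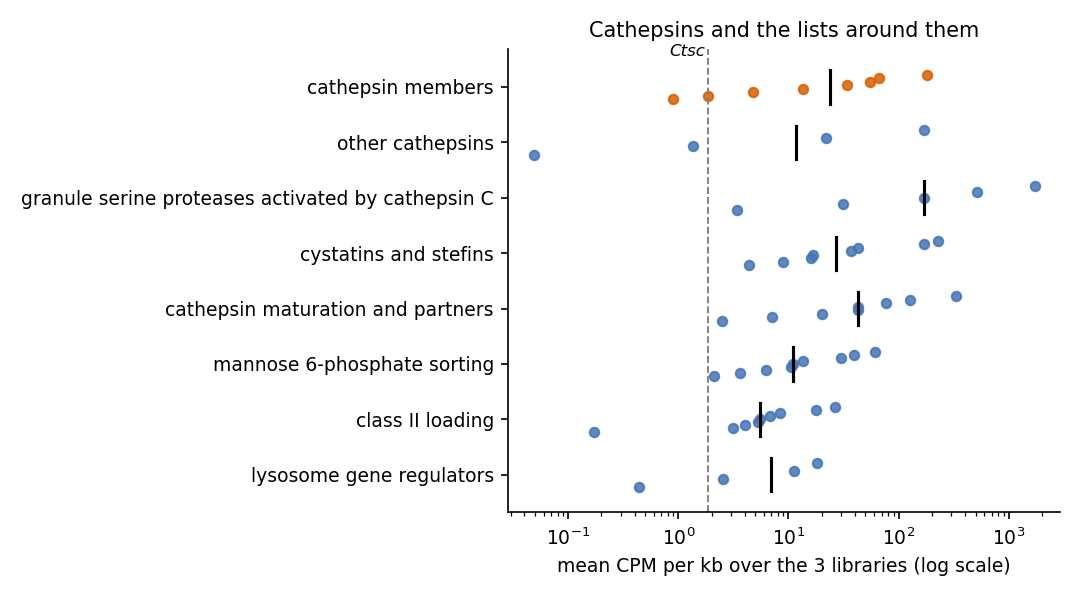
Mean CPM per kb over 3 libraries (x axis, log scale) of the listed genes of the cathepsin family (orange) and of 7 related lists (blue), with black bars at the list medians. The dashed line marks Ctsc at 1.87 CPM per kb. All 5 granule serine proteases and all 8 cystatins and stefins lie to the right of it, as do 6 of the 7 other cathepsins.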

How the data were processed

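The authors deposited CPM for each gene and library, per the labels' processing notes made with FastQC, STAR, featureCounts and edgeR and with the builds mm10 and GRCh38 named. The sources used here do not give versions, strand setting, annotation, how genes were filtered or what each build was for. Each of the 3 files held 11463 entries. After 44 repeats of a gene were dropped, CPM summed to 1000000 over 11419 genes, and 100% of values were whole multiples of 1 read within 0.01 reads. Intervals and the 3 reads that a count of 0 allows cover counting error only, since reads are not independent molecules.

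Replicate numbers came from the sample titles, and p-values reflect nothing but how far these libraries differ, a spread that may be technical. In limma 3.58.1 (R 4.3.3), log2(CPM + 1) was tested against 10 CPM plus the pseudocount of 1, two-sided, with a variance trend and Benjamini-Hochberg adjustment, for the 11123 genes with at least 10 reads. Ctsc minus each gene was tested against 0 in the same way, on log2((CPM + 1) per kb), with exon lengths from GENCODE M21 (GRCm38, the assembly of mm10), which matched 99.9% of genes. The fits were also run on simulated counts. Ctsc was given no noise in the simulated differences, so that run could not show why their p-values are too small. edgeR 4.0.16 on the recovered reads, an F test from the deviances with and without the intercept, called 6658 genes above 10 CPM and 2838 below, and DESeq2 1.42.0 called 6558 and 2939. The pseudocount of 1 draws the level of a low gene closer to 10 CPM. Per kb it can instead raise a low gene with short exons. Ctss over Ctsc was 2.09-fold with a pseudocount of 1 and 1.69-fold with 0.1. Named genes were the 8 members. In each other list every gene was named where at most 6 were listed, and otherwise the 4 highest and 2 lowest by mean CPM. Also named were the 3 genes nearest to Ctsc, the gate genes and leading markers. The members and lists were chosen with earlier results of these data known.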

Additional observations from a re-analysis of the deposited data

How the results depend on the processing

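The 5 genes above 10 CPM kept their calls in all 14 alternatives run, and their differences from Ctsc kept sign and call in all 12. The count of genes below 10 CPM, 2 as reported, was 1 with no filter on low values, with no variance trend, with edgeR and with DESeq2 on recovered reads, and 0 at a level of 5 CPM and with no moderation of variances, 3 at a level of 20 CPM, and it ranged from 1 to 2 when a replicate was left out. At 5 CPM, 6 genes were above, Ctsc among them (log2 level 0.96, limma adjusted p = 0.000323). The number of other cathepsins above Ctsc per kb, 6 as reported, was 5 with a pseudocount of 0.1, the longest transcript, no length, no moderation and without replicate 2 or 3. The number that Ctsc exceeds, 1 as reported, was 2 with no length and 0 with no moderation, and ranged from 0 to 1 when a replicate was left out. The share of Ctsc in the summed CPM per kb, 0.524%, was 0.806% with the longest transcript as length and 0.994% with no length. The sign turned for Ctsc against the fixed level without replicate 2 (-0.0049, in a range up to 0.26 when other replicates were left out) and at 20 CPM (-0.85), for Ctsl at 5 CPM (0.16) and for Ctsc minus Ctss with no length (1.03). Apart from what the change of level or length itself does, the cause was not tested. The fixed level of 10 CPM is a choice, and Ctsc sits at it. Replicate 1, with 51.5 reads at 10 CPM against 401 and 376, limits the low members. Lengths assume that reads spread over all annotated exons. No paired analysis was possible because there is 1 group.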

Other observations

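The genes of class II antigen loading, the pathway in which cathepsin S acts, lay on both sides of 10 CPM. Of 9, 4 were above 10 CPM and 2 below, against 58.8% and 28.3% of all genes, and the other 3 had no call. Their median was 5.46 CPM per kb, against 4.37 over all listed genes. Cd74, the invariant chain gene, was at 51.3, 42.2 and 38.9 CPM in replicates 1, 2 and 3, H2-Ab1 at 21.4 ± 2.22, H2-Aa at 20.3 ± 5.19 and Ifi30, a lysosomal thiol reductase gene, at 17.5 ± 5.04 CPM (SD, n = 3). Ciita, the activator of class II genes, was below at 1.62 ± 0.119 CPM, and H2-DMb1 at 6.81 ± 2.66. Cd74 was highest in replicate 1, the library in which Ctss was lowest, and Ctss was at 0.777, 7.95 and 10.8 CPM.

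Of 4 regulators of lysosomal genes, 3 were above 10 CPM and 1 below, against 58.8% and 28.3% of all genes. All 4 were lowest in replicate 1. Here and for the other lists, the share of all genes with the same order of libraries was not counted. Tfeb was at 97.3, 100.3 and 109 CPM and Tfe3 at 99.0, 106 and 107 CPM in replicates 1, 2 and 3, with ranges of 0.16 and 0.10 on the log2(CPM + 1) scale. Their relative Mitf was below at 2.72 ± 0.842 CPM, and Zkscan3, known as a repressor of lysosomal genes, was at 12.6, 19.2 and 29.5 CPM.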
